A study of Homo sapiens with 6 samples.

Results

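Wnt receptors, co-receptors and secreted modulators were examined in Hs578T, a mesenchymal triple-negative breast cancer line, with and without knockdown of CCN3, a secreted matricellular protein. The members were 33 genes, taken by symbol from a table of 46427 genes. They comprised 10 Frizzled receptors, 2 LRP co-receptors, 3 other Wnt receptors, 5 Dickkopf and Kremen genes, 6 genes of the secreted Frizzled-related family with WIF1, and 7 R-spondin and LGR genes. Poly(A) RNA was sequenced from 3 libraries of Hs578T cells carrying a retroviral control shRNA (shCTRL) and from 3 libraries of cells carrying the second CCN3 shRNA of the study (shCCN3). Both kinds of cell were transduced with a pSUPER-retro-puro vector and selected with puromycin, and both were grown in DMEM with fetal bovine serum. The methods speak of clones and do not say whether the libraries came from a pool or a single clone. Only 1 shRNA against CCN3 was sequenced, so that knockdown of CCN3 and any other effect of that shRNA or of the selected cells cannot be told apart. The sequencing served to find genes that change with CCN3.

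Wnt ligands bind a Frizzled receptor together with LRP5 or LRP6, which stabilizes β-catenin, or they act through Frizzled, ROR and RYK receptors without β-catenin. Secreted Frizzled-related proteins and WIF1 bind the ligand, and Dickkopf proteins such as DKK1 bind LRP5 and LRP6 with Kremen as a partner. R-spondins acting through LGR receptors keep Frizzled and LRP proteins at the cell surface by holding off the ubiquitin ligases RNF43 and ZNRF3. In breast cancer, Wnt signaling is known for its link to stem-like cell states.

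The libraries held 56159110 to 68393177 counts. Levels are given as CPM, counts scaled to library size, and 3 counts, taken as the detection floor, corresponded to 0.0435 to 0.0540 CPM per library. CCN3 itself was at 103, 102 and 98.1 CPM in shCTRL and at 47.4, 47.2 and 46.5 CPM in shCCN3. The groups did not overlap, and the log2 fold change was -1.10 (SE 0.06, adjusted p = 1.34e-06, quasi-likelihood test of edgeR, n = 3 each). Of the mesenchymal genes, VIM, FN1 and SPARC had group means of at least 777 CPM, CDH2 was at 89.0 and 162 CPM and ZEB1 at 50.7 and 53.9 CPM in shCTRL and shCCN3. The epithelial genes EPCAM, CDH1 and KRT19 had group means of at most 0.132 CPM. The epithelial keratin genes KRT8 (20.0 and 13.9 CPM in shCTRL and shCCN3) and KRT18 (163 and 232 CPM) were detected. The estrogen receptor gene ESR1 also had group means of at most 0.132 CPM, whereas PGR (2.86 and 3.80 CPM) and ERBB2 (77.9 and 78.2 CPM) were detected. CD3E and CDH5, markers of T cells and endothelium, had no count in any library. PTPRC and VWF had group means of at most 0.18 CPM. CD68 (102 and 58.5 CPM in shCTRL and shCCN3) and PECAM1 (3.57 and 3.43 CPM) were detected. Of the members tested, shCCN3 replicate 2, the library with the fewest counts, was the lowest of its group in 13 of 19, against 42.3% of all genes. Among the controls, shCTRL replicate 3 was the lowest in 13 of 19, against 39.0% of all genes. Calls of members that change without shCCN3 replicate 2 are given both ways.

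CCN3 knockdown cells had a different mix of Wnt receptor mRNAs from control cells. FZD7 and FZD4 were higher, FZD1 and FZD8 were lower, and the ligand-binding inhibitor SFRP1 and the agonist RSPO2 were both lower, by log2 fold changes of -1.60 and -1.62. In such bulk libraries fewer expressing cells and less RNA per cell cannot be told apart. Of the 33 members, 6 had no count in any library, 8 were detected but too low to test, and 19 were tested. An adjusted p under 0.05 was reached by 10 of the 19 (52.6%), against 33.4% of all 17419 genes tested. Of these, 4 were higher in shCCN3 (21.1% of members tested, against 16.2% of all genes) and 6 were lower (31.6%, against 17.3%). The number higher ranged from 2 without shCCN3 replicate 1 to 9 without shCCN3 replicate 2. At least 2-fold changes that passed the test were found in 4 members (21.1%, against 8.10% of all genes), namely FZD7, FZD1, SFRP1 and RSPO2. The groups did not overlap in 12 of the 19 members (63.2%, against 46.3% of all genes). The median log2 fold change of the 19 was 0.20, against 0.01 for all genes tested, and the median size of the change was 0.36, against 0.24.

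**Figure D1:**
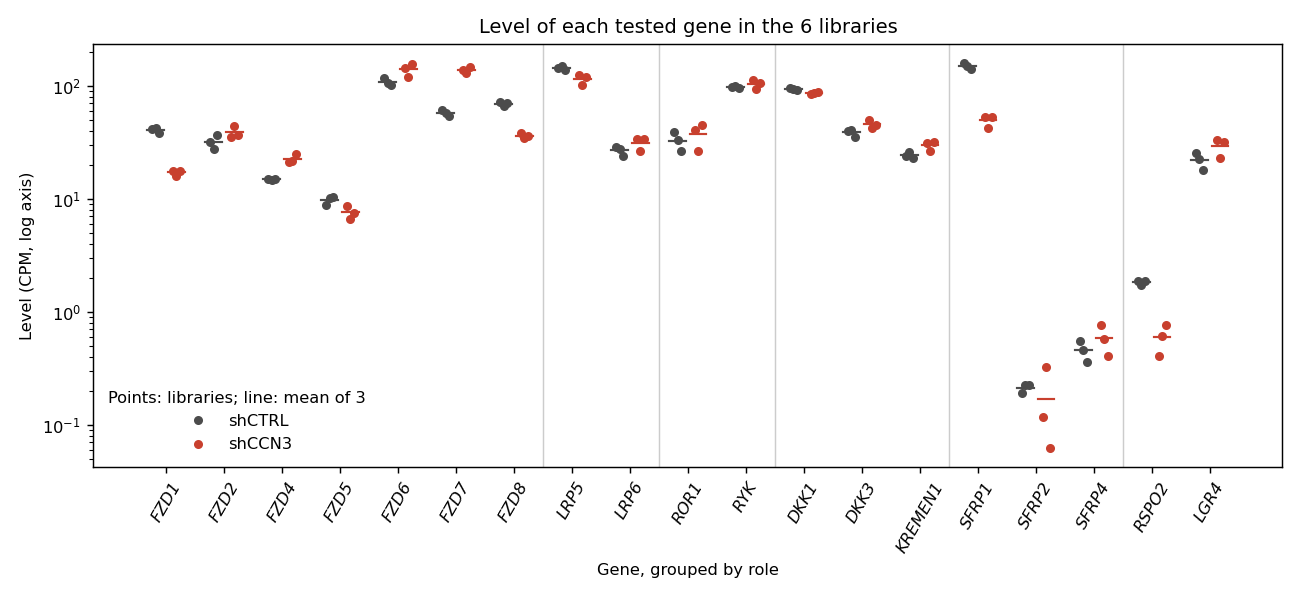
Level of each of the 19 tested members in the 6 libraries, in CPM on a log axis, with genes grouped by role. Each point is a library and each line the mean of 3, and the groups stand apart most clearly for FZD1, FZD7, FZD8, SFRP1 and RSPO2.

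The Frizzled receptors, the seven-pass membrane proteins that bind Wnt ligands, divided into members that rose and members that fell. Of the 10 genes, 7 were tested, and 3 were higher (against 16.2% of all genes), 3 were lower (against 17.3%) and 1, FZD2, did not pass the test. FZD7, a receptor known from stem-like and triple-negative breast cancer cells, was at 61.3, 57.8 and 54.1 CPM in shCTRL and at 138, 129 and 145 CPM in shCCN3. All shCCN3 libraries lay above all shCTRL libraries. The log2 fold change was 1.25 (SE 0.07, adjusted p = 2.57e-06, edgeR). FZD4, the receptor for norrin as well as for Wnt ligands, was at 15.0, 14.5 and 14.8 CPM in shCTRL and at 21.2, 21.5 and 24.7 CPM in shCCN3. Every knockdown library was again above every control library, with a log2 fold change of 0.60 (SE 0.08, adjusted p = 0.000479, edgeR). FZD4 shares 1399 exonic bases with PRSS23 on the opposite strand, and PRSS23, a serine protease gene, went from 345 to 558 CPM (log2 fold change 0.69). The sources used here do not state whether counting used the strand, so that reads of FZD4 and PRSS23 in this stretch may not be told apart. FZD6, DKK1 and LGR5 each share 138 to 212 exonic bases with an antisense gene. KREMEN2, with at most 6 counts in any library, shares 360 exonic bases with PKMYT1 on the opposite strand. PKMYT1 was at 105 and 103 CPM in shCTRL and shCCN3.

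FZD6, a receptor best known for planar cell polarity, was at 116, 106 and 101 CPM in shCTRL and at 143, 119 and 156 CPM in shCCN3. The groups did not overlap, but the lowest knockdown library was close to the highest control library. Its log2 fold change was 0.37 (SE 0.10, adjusted p = 0.0188, edgeR), and the call was kept in 9 of 13 alternative analyses. It was lost without shCTRL replicate 2 or 3 and without shCCN3 replicate 1 or 3 (adjusted p from 0.0647 to 0.0736, edgeR).

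FZD1, a receptor that can signal through β-catenin, was at 41.0, 41.7 and 38.4 CPM in shCTRL and at 17.7, 15.9 and 17.5 CPM in shCCN3. The groups were far apart relative to their spread, and the log2 fold change was -1.24 (SE 0.07, adjusted p = 3.41e-06, edgeR). FZD8, a close relative of FZD5, was at 71.9, 66.5 and 69.8 CPM in shCTRL and at 38.1, 34.1 and 35.8 CPM in shCCN3. It too was lower in every knockdown library, by a log2 fold change of -0.95 (SE 0.07, adjusted p = 8.96e-06, edgeR). FZD5 was at 8.86, 10.1 and 10.4 CPM in shCTRL and at 8.65, 6.59 and 7.52 CPM in shCCN3. The highest knockdown library lay just under the lowest control library. The log2 fold change of FZD5 was -0.36 (SE 0.12, adjusted p = 0.0412, edgeR), and the adjusted p was 0.0724 without shCCN3 replicate 2. The call was also lost without shCTRL replicate 2 or 3 and without shCCN3 replicate 3 (adjusted p from 0.103 to 0.135, edgeR).

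FZD2, a receptor of WNT5A-type ligands, was at 31.5, 27.6 and 36.5 CPM in shCTRL and at 35.4, 44.1 and 36.6 CPM in shCCN3. The groups overlapped, and the log2 fold change of 0.28 had a 95% confidence interval of 0.02 to 0.55 and did not pass (adjusted p = 0.0967, edgeR). Without shCTRL replicate 3 it was 0.39 (adjusted p = 0.0361, edgeR). FZD3 and FZD9 were too low to test, with at most 16 and 18 counts in any library, and FZD10 had no count.

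Promoter sequence was at hand for 5 of the 10 members that passed the test, namely FZD1, FZD4, FZD5, FZD8 and LRP5. Those of FZD1 and FZD8, which fell, and of FZD4, which rose, are shown to set side by side the start-site sequence of Frizzled genes that moved in opposite directions. Each is the 250 bases before the RefSeq start (GRCh38.p14) on the gene's own strand, at chr7:91264183-91264432 (plus strand) for FZD1, chr10:35642297-35642546 (minus strand) for FZD8 and chr11:86955396-86955645 (minus strand) for FZD4. Capitals mark the GC box GGGCGG on either strand (CCGCCC on the other).
FZD1: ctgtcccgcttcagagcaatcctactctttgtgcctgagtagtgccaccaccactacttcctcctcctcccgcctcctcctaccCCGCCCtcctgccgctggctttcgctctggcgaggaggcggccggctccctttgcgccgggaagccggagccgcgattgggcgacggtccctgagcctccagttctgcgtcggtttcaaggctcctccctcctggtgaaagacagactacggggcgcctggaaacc
FZD8: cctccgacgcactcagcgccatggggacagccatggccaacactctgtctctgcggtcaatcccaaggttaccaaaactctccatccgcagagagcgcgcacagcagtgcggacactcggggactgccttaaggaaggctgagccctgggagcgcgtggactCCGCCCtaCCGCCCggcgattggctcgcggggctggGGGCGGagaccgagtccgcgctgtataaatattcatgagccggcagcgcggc
FZD4: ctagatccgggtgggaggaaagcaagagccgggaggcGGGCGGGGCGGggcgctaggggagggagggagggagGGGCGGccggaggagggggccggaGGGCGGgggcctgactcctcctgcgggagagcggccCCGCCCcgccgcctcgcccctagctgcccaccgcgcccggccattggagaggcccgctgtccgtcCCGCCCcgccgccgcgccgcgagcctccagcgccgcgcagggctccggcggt
FZD1 held 1 GC box and 19 CpG dinucleotides in this window, and FZD8 held 3 and 24. FZD4 held 6 and 33, the first 2 of its boxes overlapping by a base. FZD5 and LRP5, which both fell, held 6 boxes with 30 CpG and 3 boxes with 43 CpG. The counts therefore did not sort these genes by direction. Of 27305 promoter windows of the same length, 42.3% held a GC box, and the median number of CpG was 11. Neither the TCF/LEF core CTTTGAT nor the TEAD core GGAATG was found on either strand in the 5 promoters, and 2.28% and 11.9% of all windows held them. These matches describe letters in a window and were not tested as binding sites.

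Because transcript lengths differ, levels were divided by the length of the longest protein-coding transcript before Frizzled genes were compared with each other. The summed Frizzled level was 88.6, 82.1 and 84.5 CPM per kb in shCTRL and 106, 100 and 112 CPM per kb in shCCN3. It was higher in every knockdown library. FZD7 made up 17.9%, 18.2% and 16.6% of that sum in shCTRL and 33.6%, 33.4% and 33.5% in shCCN3. FZD8 went from a share of 20.2% ± 0.227 to 8.41% ± 0.477 and FZD1 from 6.82% ± 0.417 to 2.30% ± 0.0795 (SD, n = 3 each). The share of FZD6 was 33.5% ± 1.61 in shCTRL and 34.5% ± 2.87 in shCCN3, and these overlapped. In shCCN3 the shares of FZD6 and FZD7 did not differ beyond their spread with these lengths. FZD1, FZD5 and FZD8 together went from 28.8% ± 0.486 to 11.8% ± 0.661, and FZD4, FZD6 and FZD7 together went from 53.4% ± 2.45 to 70.9% ± 2.99. These sums group members by the direction they took and are a description. Shares of plain CPM, without the length, gave 12.2% and 4.28% for FZD1 and 17.4% and 34.5% for FZD7. Shares depend on the lengths used, and that of FZD2 is 2112 bases in the gene models and 3779 in RefSeq. With the gene models FZD2 had 17.7% in shCTRL and 17.3% in shCCN3. A setting chosen after seeing the data took RefSeq spans for all single-exon Frizzled genes, FZD7 included. It gave 11.1% and 11.2% for FZD2. In shCCN3 it gave 39.6% ± 2.74 for FZD6 and 32.4% ± 0.374 for FZD7 (SD, n = 3 each), which differ beyond their spread.

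The co-receptors LRP5 and LRP6 pair with Frizzled in β-catenin signaling, and LRP5 passed the test while LRP6 did not. LRP5 was at 142, 148 and 136 CPM in shCTRL and at 123, 101 and 120 CPM in shCCN3. The groups did not overlap, and LRP5 had a log2 fold change of -0.31 (SE 0.08, adjusted p = 0.0175, edgeR), or -0.22 without shCCN3 replicate 2 (adjusted p = 0.00971). The call was lost without shCTRL replicate 1 or 2 (adjusted p = 0.0527 and 0.0866, edgeR). LRP6 was at 28.6, 27.6 and 23.8 CPM in shCTRL and at 33.9, 26.1 and 33.5 CPM in shCCN3. Its groups overlapped through shCCN3 replicate 2, and the change of 0.23 on the log2 scale did not pass the test (adjusted p = 0.162, edgeR). Without that library it was 0.34 (adjusted p = 0.00861, edgeR). The difference between LRP5 and LRP6 was not tested.

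Of the other Wnt receptors, ROR1, a receptor tyrosine kinase-like protein that binds WNT5A, was at 38.5, 32.7 and 26.3 CPM in shCTRL and at 40.7, 26.6 and 44.9 CPM in shCCN3. RYK, a pseudokinase receptor, was at 98.2, 98.2 and 94.4 CPM in shCTRL and at 112, 92.8 and 106 CPM in shCCN3. Both overlapped between groups, and their log2 fold changes of 0.20 and 0.10 had 95% confidence intervals of -0.23 to 0.63 and -0.07 to 0.26. Without shCCN3 replicate 2 these were 0.40 and 0.17. ROR2 had no count in any library, so ROR1 was the detected member of that pair.

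Of the secreted inhibitors that act on the ligand, SFRP1 had the highest level per length (33.3 and 11.0 CPM per kb in shCTRL and shCCN3). It binds Wnt proteins and is often silenced in breast cancer. SFRP1 was at 158, 151 and 141 CPM in shCTRL and at 53.2, 42.5 and 52.4 CPM in shCCN3. The lowest control library was far above the highest knockdown library, and the log2 fold change was -1.60 (SE 0.09, adjusted p = 3.00e-06, edgeR). Its relatives were at low levels. SFRP2 had 4 to 18 counts in any library and SFRP4 had 24 to 52, and neither passed the test (adjusted p = 0.661 and 0.456, edgeR). The log2 fold change of SFRP2 was -0.37, and -1.21 without shCCN3 replicate 2 (adjusted p = 0.125, edgeR). FRZB had at most 11 counts, and SFRP5 and WIF1 had none.

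The Dickkopf and Kremen genes included 3 tested genes, of which 1 passed the test, a share like the 33.4% of all genes. DKK1, the classical secreted LRP5/6 antagonist and itself a known Wnt target, was at 94.5, 93.5 and 91.7 CPM in shCTRL and at 84.2, 86.1 and 87.3 CPM in shCCN3. The groups did not overlap, yet the log2 fold change of -0.12 (95% confidence interval -0.24 to 0.00) did not pass the test (adjusted p = 0.126, edgeR). Per kb of transcript DKK1 had the highest level of the 19 tested members in both groups, at 52.1 and 48.0 CPM per kb. DKK3, a divergent Dickkopf protein, was at 39.8, 40.6 and 35.1 CPM in shCTRL and at 49.1, 42.5 and 44.4 CPM in shCCN3. These also did not overlap, and the value of 0.24 on the log2 scale missed the threshold (adjusted p = 0.0536, edgeR), with an adjusted p of 0.0158 without shCCN3 replicate 2. KREMEN1, a membrane receptor for Dickkopf proteins, was between 22.6 and 25.9 CPM in the 3 shCTRL libraries and at 31.0, 26.1 and 31.9 CPM in shCCN3. Its lowest knockdown library was just above its highest control library, and the log2 fold change was 0.30 (SE 0.09, adjusted p = 0.0350, edgeR). That call was kept in 7 of 13 alternative analyses and lost without any single library other than shCCN3 replicate 2 (adjusted p from 0.0523 to 0.123, edgeR). DKK2 and KREMEN2 had at most 5 and 6 counts in any library.

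RSPO2, a secreted agonist that strengthens Wnt signaling, was the R-spondin that could be tested. It had 128, 109 and 126 counts in shCTRL and 28, 34 and 49 in shCCN3, or 1.83 ± 0.0784 CPM and 0.595 ± 0.181 CPM (SD, n = 3 each). Every knockdown library was lower than every control library, with a log2 fold change of -1.62 (SE 0.24, adjusted p = 0.00083, edgeR). RSPO1 had no count, and RSPO3 and RSPO4 had at most 4 and 8 in any library. Of the LGR receptors for R-spondins, LGR4 was at 25.5, 22.2 and 17.9 CPM in shCTRL and at 32.9, 22.7 and 32.0 CPM in shCCN3. The groups overlapped through shCCN3 replicate 2, and the value of 0.42 on the log2 scale did not pass the test (adjusted p = 0.0754, edgeR). Without that library it was 0.57 (adjusted p = 0.0036, edgeR). LGR5, a stem cell marker in several epithelia, was below the test's filter, with 0, 0 and 3 counts in shCTRL and 20, 11 and 9 in shCCN3. Its groups did not overlap, and the ratio of CPM-scaled totals was 14.1, with a counting interval of 4.48 to 71.0 that covers counting error only. With no filter on low counts LGR5 passed the test (adjusted p = 0.0319, edgeR). LGR6 had no count.

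**Figure D2:**
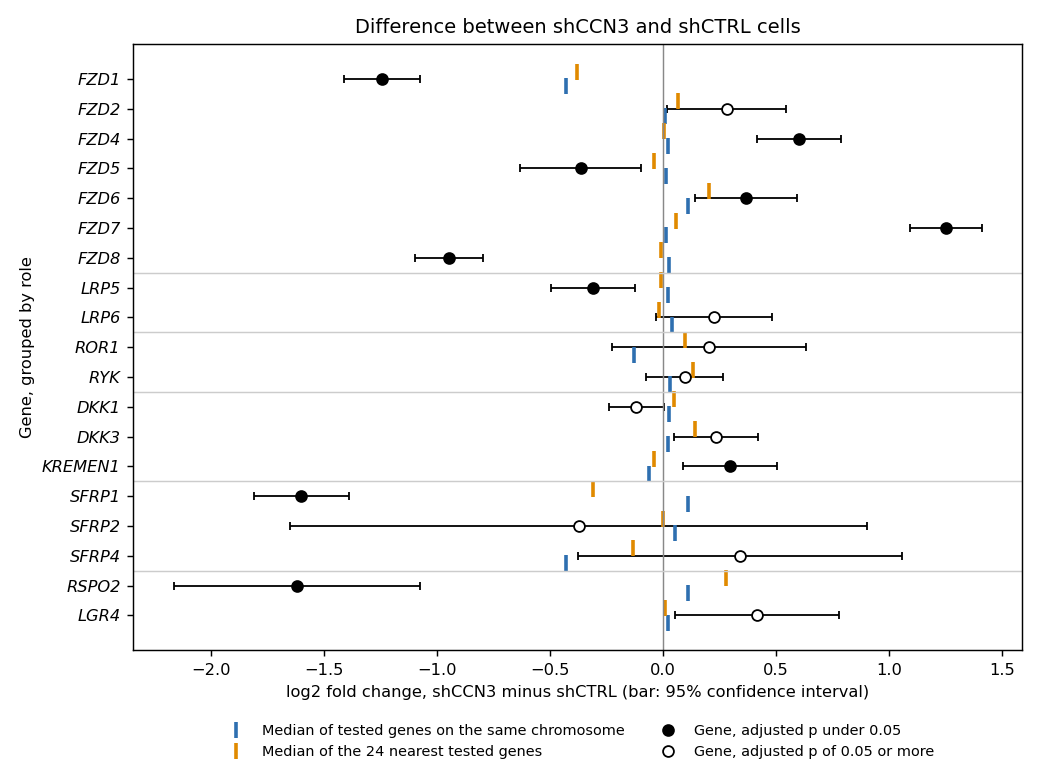
Log2 fold change (shCCN3 minus shCTRL) of the 19 tested members with 95% confidence intervals, filled where the adjusted p was under 0.05, beside the median log2 fold change of genes on the same chromosome and of the 24 nearest tested genes. FZD1, FZD7, FZD8, SFRP1 and RSPO2 lie far from both medians, and the chromosome median beside FZD1 is itself at -0.43.

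Without shCCN3 replicate 2, 14 of 21 members tested passed the test, 9 higher and 5 lower. Of all 17837 genes tested, 40.5% were then called, 20.0% higher and 20.5% lower. LRP6, ROR1, RYK, DKK3 and LGR4 were the members added to the higher ones (adjusted p = 0.00861, 0.0299, 0.0291, 0.0158 and 0.0036, edgeR), and FZD5 was lost. Without shCCN3 replicate 1, FZD7 and FZD4 were the 2 members still higher, beside 12.1% of all genes. FZD1, FZD4, FZD7, FZD8, SFRP1 and RSPO2 passed the test in all 13 alternative analyses, including each that left out 1 library.

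**Figure D3:**
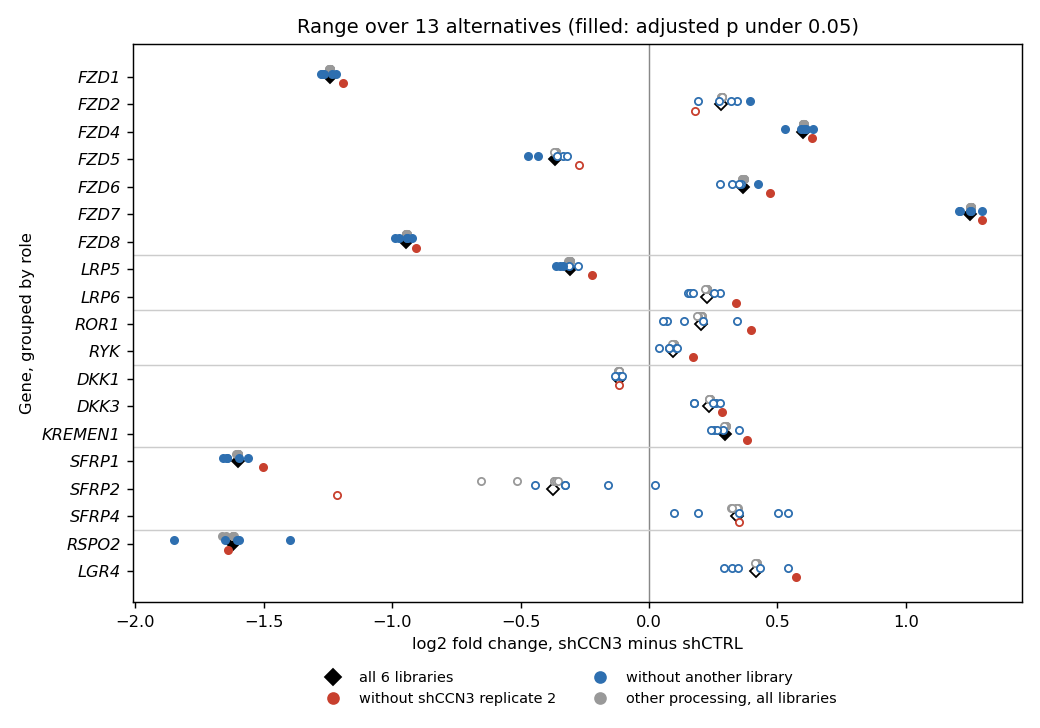
Log2 fold change (shCCN3 minus shCTRL) of the 19 tested members with all 6 libraries (diamonds) and in the alternative analyses (circles), filled where the adjusted p was under 0.05. The 6 members that stay filled are FZD1, FZD4, FZD7, FZD8, SFRP1 and RSPO2, and the values without shCCN3 replicate 2 lie to the right for most of the others.

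The members that passed the test lie on several chromosomes, and neighboring genes were examined because expression can shift over a region. FZD1 lies at chr7:91264433-91271326. Over the 821 tested genes of chromosome 7 the median was -0.43 on the log2 scale, and over the 24 tested genes nearest to FZD1 it was -0.38. The log2 fold change of FZD1 minus that of its neighbors was -0.86. SFRP1 lies at chr8:41261962-41309473, where the 24 nearest tested genes had a median of -0.31 and the whole chromosome 0.11; the value of SFRP1 minus that of its neighbors was -1.29. The 24 genes nearest to FZD6 had a median of 0.20, which left a difference of 0.16 for FZD6. For FZD7 (chr2:202033855-202038441), FZD8 (chr10:35638247-35642296) and FZD4 (chr11:86945679-86955395), the medians of the neighbors were 0.06, -0.01 and 0.01. Those 3 genes changed while the median of their neighbors was near 0, although PRSS23, which overlaps FZD4, also had a log2 fold change of 0.69.

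Beyond the members, 67 other genes of the Wnt pathway were examined as a list, and 49 could be tested. An adjusted p under 0.05 was reached by 18 of these (36.7%, against 33.4% of all genes). In shCCN3 6 were higher (12.2% of the 49, against 16.2% of all genes) and 12 were lower (24.5%, against 17.3%). The median log2 fold change was 0.00. Without shCCN3 replicate 2, 9 were higher and 11 lower, beside 20.0% and 20.5% of all genes. The cytoplasmic core, which carries and destroys β-catenin, had 1 of 10 genes called (10%, against 33.4% of all genes). That gene was DVL1, named after its value was seen, at 229 CPM in shCTRL and 160 CPM in shCCN3. Its log2 fold change was -0.51 (adjusted p = 0.000165, edgeR). AXIN2, which is also a β-catenin target, was not called (log2 fold change -0.14, adjusted p = 0.514, edgeR). RNF43, the ubiquitin ligase that removes Frizzled from the surface, was at 21.5, 19.8 and 18.9 CPM in shCTRL and at 11.2, 9.12 and 9.94 CPM in shCCN3. It fell in every knockdown library (log2 fold change -0.99, adjusted p = 6.12e-05, edgeR), whereas its relative ZNRF3, named after its value was seen, did not pass the test (log2 fold change -0.20, adjusted p = 0.242). WLS, the carrier that Wnt ligands need for secretion, was at 123, 124 and 124 CPM in shCTRL and at 62.6, 63.5 and 62.1 CPM in shCCN3. Its log2 fold change was -0.98 (adjusted p = 1.91e-06, edgeR). The secreted or membrane-bound Wnt inactivators NOTUM and TRABD2B, both under 3 CPM, were also lower (log2 fold change -0.94 and -1.77). TNFRSF19, a receptor known as a β-catenin target, fell from 44.6 ± 1.34 to 11.5 ± 0.251 CPM (SD, n = 3 each). Other β-catenin partners and targets were named after their values were seen. SP5 was lower (log2 fold change -2.16, adjusted p = 0.00241, edgeR), and NKD1 did not pass the test (0.04, adjusted p = 0.953). The TCF/LEF factors went both ways. LEF1 (0.34, adjusted p = 0.0276) and TCF7L1 (0.84, adjusted p = 0.000185) were higher. TCF7 was lower (-0.86, adjusted p = 1.01e-05), and TCF7L2 did not pass the test (-0.24, adjusted p = 0.0756, edgeR). CELSR1, a planar cell polarity cadherin, was at 2.46, 1.86 and 1.67 CPM in shCTRL and at 8.62, 8.21 and 10.5 CPM in shCCN3. It rose by 2.19 on the log2 scale (adjusted p = 1.43e-05, edgeR).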

How the data were processed

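RNA of Hs578T shCTRL and shCCN3 cells (n = 3 libraries each) had been sequenced by the authors on an Illumina instrument after a TruSeq stranded poly(A) preparation. The authors deposited raw gene counts in 1 table, and all its count columns matched a sample by name. The submitters' processing notes name bcl2fastq 2.20.0, Trimmomatic, HISAT2 2.1.0, StringTie 2.1.3d, DESeq2 and GRCh38; their order and whether counting used the strand are not given in the sources used here. Reads shared with overlapping genes may therefore be misassigned. The labels do not say whether replicates were separate cultures, so p-values measure only the spread between these libraries.

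The deposited counts were tested with edgeR 4.0.16 (R 4.3.3): TMM scaling, filterByExpr with a minimum count of 10, quasi-likelihood test, Benjamini-Hochberg adjustment over 17419 genes, threshold 0.05. Intervals are 95% and ratio intervals are exact binomial, covering counting error only. The fit was checked on simulated counts. Alternatives used DESeq2 1.42.0, limma-voom 3.58.1, other scalings and filters, a replicate block, and each library left out. The labels do not say that replicate numbers pair the libraries, and the main fit used no replicate block. Lengths came from the gene models in the reference annotation (longest protein-coding transcript), and promoters and positions from RefSeq (GRCh38.p14), where 20 of 33 members had a promoter entry. All tested members are named. Of other pathway genes, ligands aside, a rule picked the 6 largest changes that passed the test at a mean of at least 1 CPM. DVL1, AXIN2, ZNRF3 and the remaining pathway genes in the text were named outside this rule. The members and lists were chosen with earlier results of these data known.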

Additional observations from a re-analysis of the deposited data

How the results depend on the processing

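The count of members higher in shCCN3 was 4 with all libraries and ranged from 2 to 9 when 1 library was left out, the lowest without shCCN3 replicate 1 and the highest without shCCN3 replicate 2. The count of members lower ranged from 4 to 6 over the alternatives. Of 246 member values recomputed, 219 kept their side of the threshold, 18 lost the call and 9 gained it. The direction was kept in all but 1, SFRP2 without shCCN3 replicate 3, which was not called in either analysis (0.03 against -0.37). Calls of FZD5, FZD6, LRP5 and KREMEN1 were kept in 7, 9, 11 and 7 of 13 alternatives. With the replicate block FZD5 and KREMEN1 were no longer called (adjusted p = 0.0679 and 0.0764, edgeR), and 4887 genes were called against 5825. Same-numbered libraries did not deviate together (correlations 0.149, -0.0726 and -0.259). The highest correlation of each shCTRL library with a shCCN3 library of another number was 0.255, 0.0725 and 0.347. Deviations were taken from the group means, so where the same-numbered value was negative a positive value elsewhere was bound to occur. The cause of these changes was not tested. SFRP2 had no value under the filter of at least 10 counts in every library. The 14 members at 0 or below the filter were not tested in the main analysis. With no filter on low counts LGR5 was called (adjusted p = 0.0319, edgeR), and the others with counts were not. FZD3 and FZD9 passed the filter without shCCN3 replicate 2 and were not called (adjusted p = 0.186 and 0.362, edgeR). Members with no count could not be tested.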
